A study of Citrus maxima and Citrus sinensis with 8 samples.

Results

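In leaves of citrus seedlings, 93 of 30297 listed gene IDs were at 5 FPKM or more in each of the 4 libraries of Citrus sinensis (sweet orange) and below 0.1 FPKM in each of the 4 libraries of Citrus grandis (pummelo, listed under its synonym Citrus maxima). FPKM scales the fragments counted for a gene to its length and to the size of its library. The 93 genes were chosen by these values, so the difference between the species is described here and not tested. They made up 0.884% of the 10521 IDs that reached 5 FPKM in every C. sinensis library. The same rule with the species exchanged picked 16 IDs, 0.151% of the 10583 that reached 5 FPKM in every C. grandis library.

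Each species had control seedlings and seedlings given aluminium for 18 weeks, with 2 libraries per group. Each library came from leaves of 5 seedlings, 1 per pot, pooled as 1 biological replicate, with RNA extracted independently. The labels give no genotype or rootstock beyond the species and no aluminium dose. Library totals behind the FPKM ran from 16443205 to 19794247 reads. IDs come without gene names in these tables, and no annotation was used here, so neither the leaf label nor the function of any gene could be checked against markers, and no sequence is shown.

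Aluminium dissolves in acid soils, where it injures roots and disturbs the leaves above them, and C. sinensis is regarded in published work as the more tolerant of the pair. Sweet orange descends from crosses between pummelo and mandarin, so its genome holds stretches inherited from each. Genes that one plant genome carries and a relative lacks are common among crop species. In the present tables, both species share 1 gene list, whose source is unstated. Whether it was built from either species is not given, so counts under the rule and its exchanged form do not compare gene content. A gene that C. grandis lacks, a gene it keeps silent in leaves and a gene whose C. grandis reads were not placed cannot be told apart. Leaves are mixtures of cells, so fewer cells of a type and less RNA per cell cannot be told apart either.

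Most of the 93 genes were expressed at modest levels in C. sinensis. Their mean FPKM over the 4 C. sinensis libraries ran from 6.05 to 151, with a median of 10.9, against a median of 21.4 for all 10521 IDs at 5 FPKM or more in that species. Of the 93, 40 had a mean under 10 FPKM, 34 lay from 10 to under 20, 18 from 20 to under 50, and only orange1.1t00571 stood higher. Among the 10521 IDs, 22.8% had a mean of 50 FPKM or more. The ratio of the highest to the lowest C. sinensis FPKM had a median of 1.46 and a maximum of 3.49 among the 93, against a median of 1.37 for the 10521.

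**Figure D1:**
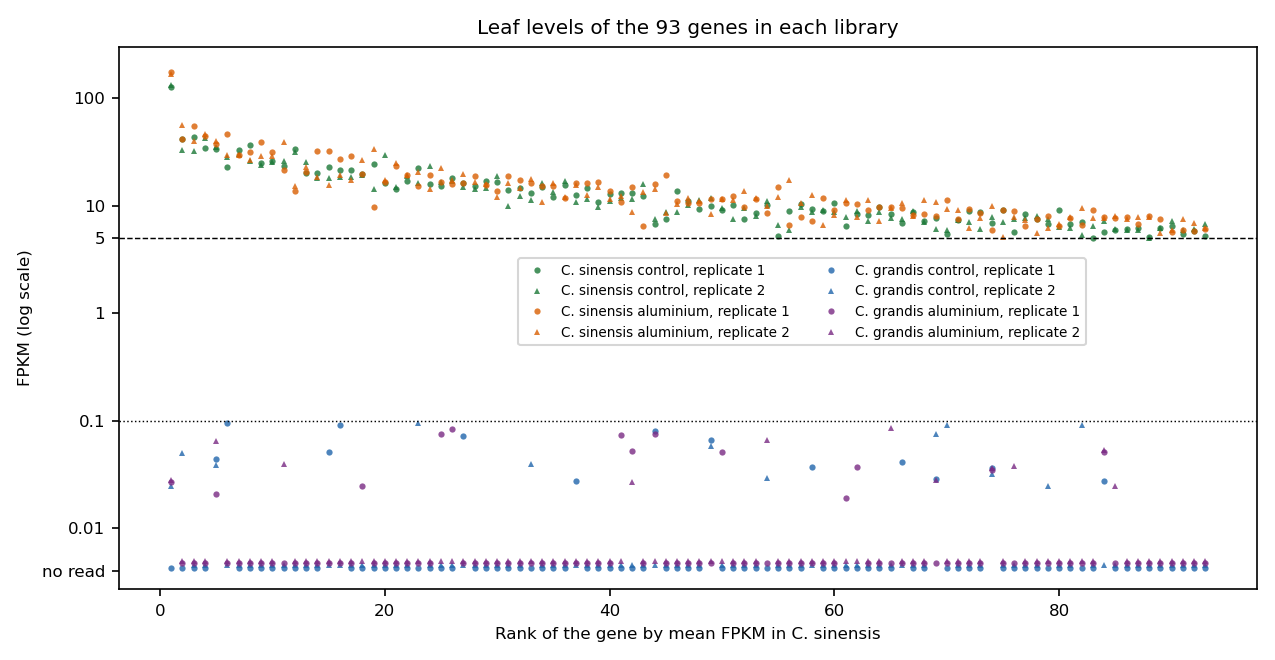
FPKM of each of the 93 genes (log axis) in each of the 8 libraries, with genes ranked by mean FPKM in C. sinensis; circles are replicate 1, triangles replicate 2, and values with no read are drawn on a separate line at the bottom. The dashed line is the limit of 5 FPKM and the dotted line that of 0.1 FPKM; orange1.1t00571 stands alone at the left and the other genes run from 43.3 FPKM down to 6.05.

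The most abundant of the set was orange1.1t00571. It stood at 128 and 133 FPKM in the C. sinensis control libraries and at 176 and 168 FPKM in the aluminium libraries, and took 20.2% of all C. sinensis reads on the 93 genes. In C. grandis it stood at 0 and 0.0247 FPKM in control and 0.0267 and 0.0278 FPKM in aluminium leaves, which is 3 reads against 24480 in C. sinensis. Relative to library totals, C. sinensis had 7466 times the reads of C. grandis (95% counting interval 2554 to 36205). The rule itself required a large ratio.

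The next 9 genes by level lay within a narrow band in C. sinensis. The second, orange1.1t05119, stood at 42.1 and 32.7 FPKM in control and 41.6 and 56.8 FPKM in aluminium leaves. For orange1.1t05622 the values were 43.5, 32.4, 55.6 and 39.6 FPKM in the same order. In both genes the replicates of a treatment differed about as much as the treatments did. Cs5g11710 stood at 34.2 and 42.6 FPKM in control and 45 and 46.4 FPKM in aluminium leaves, and at 180 bp it was one of the shortest genes of the set. Cs4g19020 stood at 33.8, 35, 37.6 and 40.2 FPKM in the same order. The last 2 genes had both aluminium libraries above both control libraries, each by a narrow margin.

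Further down, Cs2g20230 stood at 23 and 28.3 FPKM in control and 46.1 and 29.6 FPKM in aluminium leaves. Here aluminium replicate 1 was well above the other libraries. Cs4g12455 showed the same order, with 24.8 and 23.9 FPKM in control and 39.2 and 29.3 FPKM in aluminium leaves. orange1.1t05830 had aluminium libraries just below control, at 33 and 30.6 FPKM in control and 29.6 and 29.5 FPKM in aluminium leaves. Cs1g04235, at 36.9 and 26.2 against 31.5 and 26.4 FPKM, and orange1.1t04077, at 25.8 and 25.4 against 31.4 and 28.9 FPKM, complete the 10 highest. Cs1g04235 overlapped between treatments and orange1.1t04077 did not.

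In C. grandis 60 of the 93 genes had no read in any library. Whole reads could be recovered from the FPKM, because low values step in units of 1 read for a given gene and library. Over the 4 C. grandis libraries together, the 93 genes held 62 reads, against 120947 in C. sinensis. By library this was 14 and 15 reads in control and 18 and 15 reads in aluminium leaves of C. grandis. The rule held every C. grandis library below 0.1 FPKM, so a gene with many reads in a single library or treatment could not appear. Of the 33 genes with a C. grandis read, 14 had reads in control libraries only, 12 in aluminium libraries only and 7 in both. For the 60 genes without a read, a floor of 3 reads over the 4 libraries puts the C. sinensis level at least 40.6-fold to 958-fold higher, with a median of 160-fold. Bounds and intervals reflect counting error alone, because reads are summed over the 4 libraries of a species. They also count PCR copies of a molecule as separate reads. They take no account of the rule, which selected low C. grandis and high C. sinensis values. The sizes of the ratios are thus partly set by the selection and describe these genes only.

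A single C. grandis read was all that 21 of the 33 genes had, and 8 had 2 or 3. The remaining 4 were named after their values were seen. Cs4g19020 had 8 reads, between 0.0206 and 0.0643 FPKM in every C. grandis library, against 7734 reads in C. sinensis, a ratio of 885 (95% interval 449 to 2050). Cs4g06990 and Cs5g20440 had 5 reads each, with ratios of 242 (interval 103 to 746) and 218 (interval 93.1 to 672). Cs4g10870 had 4 reads, 1 in each C. grandis library, and a ratio of 222 (interval 86.6 to 818). A trace in every C. grandis library was thus seen for Cs4g19020 and Cs4g10870 among these 4.

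The set was the end of a sparse tail. Of the 10521 IDs at 5 FPKM or more in every C. sinensis library, 95.9% also reached 5 FPKM in some C. grandis library and 2.47% peaked between 1 and 5 FPKM there. Another 26 IDs peaked from 0.5 to under 1 FPKM in C. grandis and 50 from 0.1 to under 0.5 FPKM, before the 93 below 0.1 FPKM. The limits cut through close values. Just inside the C. sinensis limit lay orange1.1t01652 and Cs7g23420, both with a lowest value of 5.05 FPKM, and just outside it Cs3g04920 at 4.96 and orange1.1t06018 at 4.95 FPKM. Just inside the C. grandis limit lay Cs2g20230, with a highest value of 0.0959 FPKM, and Novel00320, with 0.0944 FPKM. Just outside lay Cs7g14420 at 0.113 and Cs9g16470 at 0.119 FPKM.

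The 93 genes differed from other leaf genes in the kind of ID they carry, which the rule did not use. IDs of the 9 numbered series Cs1g to Cs9g made up 57% of the 93 and 85.7% of the 10521 IDs at 5 FPKM or more in every C. sinensis library. IDs beginning with orange1.1t made up 30.1% against 13.2%, and those beginning with Novel0 12.9% against 1.08%. Within the numbered series, nearly all IDs advance in steps of 10, and the few whose number ends in another digit lie between them. Such in-between IDs were 15 of the 93, or 16.1%, against 2.04% of the 10521. Put the other way, the set took 0.432% of the highly expressed Cs IDs ending in 0, 6.98% of the in-between Cs IDs, 2.02% of the orange1.1t IDs and 10.5% of the Novel0 IDs. These shares are descriptions, with no test. The sources used here do not say what the prefixes and in-between numbers mean.

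**Figure D2:**
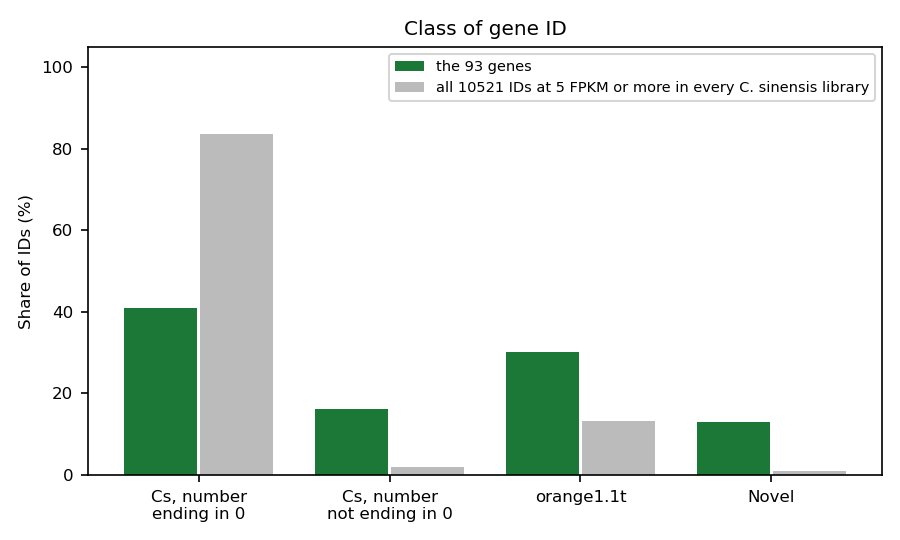
Share (%) of each class of gene ID among the 93 genes (green bars) and among all 10521 IDs at 5 FPKM or more in every C. sinensis library (grey bars). Cs IDs ending in 0 are 40.9% of the 93 and 83.7% of the 10521, while the other 3 classes are larger among the 93.

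Among the numbered series the genes were spread unevenly. Cs4g held 12 of them and Cs7g held 10, which is 1.39% and 0.766% of the highly expressed IDs of those series. Cs8g held 7 (0.933%), Cs1g held 6 (0.613%), and Cs2g, Cs3g and Cs5g held 5 each (0.423%, 0.476% and 0.364%). Cs6g held 2 (0.236%). Cs9g held only Cs9g18260 (0.15%). With so few genes per series, no order among the middle ones is drawn.

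The genes were also short. Gene lengths recovered from the FPKM had a median of 762 bp among the 93, with a range of 180 to 3090 bp, against a median of 1759 bp among the 10521. Genes under 609 bp numbered 33 of the 93 (35.5%) and 4.69% of the 10521, and genes of 1500 bp or more numbered 28 (30.1%) and 62%. Length is not independent of the rule, because for a gene shorter than 609 bp 1 read exceeds 0.1 FPKM in at least 1 C. grandis library. Of the 33 genes shorter than that, 30 had no C. grandis read at all. Of the 28 genes of 1500 bp or more, where the limit allows some reads, 11 had none.

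**Figure D3:**
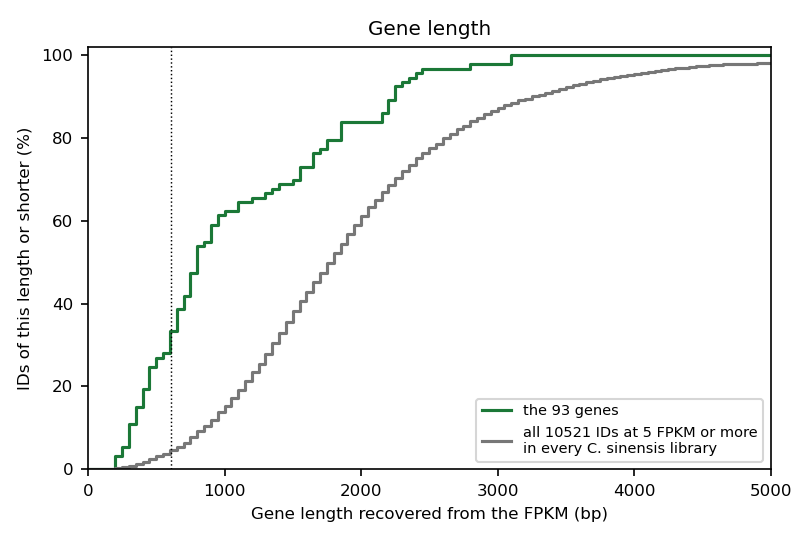
Cumulative share (%) of IDs up to each gene length (bp) for the 93 genes (green) and all 10521 IDs at 5 FPKM or more in every C. sinensis library (grey). The dotted line marks 609 bp, below which 1 read passes 0.1 FPKM in at least 1 C. grandis library; the green curve lies above the grey one, with medians of 762 and 1759 bp.

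Length and ID class were linked. The 38 genes with Cs numbers ending in 0 had a median length of 1394 bp and a median level of 9.55 FPKM. The 15 in-between Cs genes had medians of 713 bp and 14.7 FPKM, the 28 orange1.1t genes 757.5 bp and 13.1 FPKM, and the 12 Novel0 genes 474.5 bp and 11 FPKM. Among all 10521 IDs the medians were 1798 bp for Cs numbers ending in 0, 707 bp for in-between Cs numbers, 1685 bp for orange1.1t and 972 bp for Novel0. The in-between genes of the set were thus as short as others of their class, while the members of the other 3 classes were shorter than theirs. No C. grandis read was found in 21 of the 38, 12 of the 15, 18 of the 28 and 9 of the 12 genes of these classes.

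Some of the genes stood side by side in the numbering. With all listed IDs of a series in order, 15 of the 93 lay in 7 runs of neighbouring IDs, 1 run of 3 and 6 pairs. Of the 186 places next to one of the 93 genes, 16 (8.6%) held another of them, against 0.276% of the places next to any of the 10521 highly expressed IDs. Numbering is used here only as an order of IDs, and distances on the genome were not used.

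The run of 3 was orange1.1t03183, orange1.1t03184 and orange1.1t03185, none of which had a read in C. grandis. orange1.1t03183 stood at 5.23 and 6.57 FPKM in C. sinensis control and 15 and 12.1 FPKM in aluminium leaves. orange1.1t03184 stood at 9.76 and 8.69 FPKM in control and 9.76 and 7.19 FPKM in aluminium leaves. orange1.1t03185 stood at 15.7 and 16.8 FPKM in control and 11.7 and 12.1 FPKM in aluminium leaves. The 3 neighbours thus differed in order between treatments: both aluminium libraries lay above control for the first, overlapped for the second and lay below for the third. On either side, orange1.1t03182 was at 0.0897 FPKM or less in C. sinensis and orange1.1t03186 between 0.329 and 0.75 FPKM, and both were at 0 in C. grandis.

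Both other runs that the naming rule picked, each a pair, were flanked by genes that C. grandis expressed. orange1.1t00571, the most abundant gene of the set, was followed by orange1.1t00572, which stood at 17 and 18.7 FPKM in C. sinensis control and 19.5 and 19.5 FPKM in aluminium leaves and had no C. grandis read. The ID before this pair, orange1.1t00570, stood between 1.06 and 1.52 FPKM in C. grandis and between 1.25 and 3.29 FPKM in C. sinensis. The ID after it, orange1.1t00573, stood between 3.29 and 5.67 FPKM in C. grandis and between 10.2 and 14 FPKM in C. sinensis. Both IDs beside this pair were thus expressed in both species, though orange1.1t00570 at a low level. Cs4g19020 was followed by Cs4g19030, a gene of 219 bp at 14.5 and 11.6 FPKM in C. sinensis control and 16.2 and 12.5 FPKM in aluminium leaves, with no C. grandis read. Before them, Cs4g19010 stood between 13.6 and 22.6 FPKM in C. grandis and between 23.8 and 31.2 FPKM in C. sinensis. After them, Cs4g19040 stood between 0.996 and 2 FPKM in C. grandis and between 1.2 and 1.55 FPKM in C. sinensis.

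The other 4 pairs, named after their values were seen, were Cs8g11800 with Cs8g11810, orange1.1t04385 with orange1.1t04386, Cs3g04350 with Cs3g04355, and Cs2g24460 with Cs2g24470. Of these 8 genes only orange1.1t04386 had C. grandis reads, 3 in all. The IDs on both sides of the Cs8g11800 pair and of the orange1.1t04385 pair were at 0 in all 8 libraries. The Cs2g24460 pair had Cs2g24450, at 0 in all 8 libraries, on one side and Cs2g24480 on the other, at 14.3 to 18.5 FPKM in C. grandis and 9.76 to 15.5 FPKM in C. sinensis. Beside the Cs3g04350 pair, Cs3g04340 was at 0 in all 8 libraries. Cs3g04360, on its other side, was at 0 to 0.312 FPKM in C. grandis and 0.169 to 0.801 FPKM in C. sinensis.

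**Figure D4:**
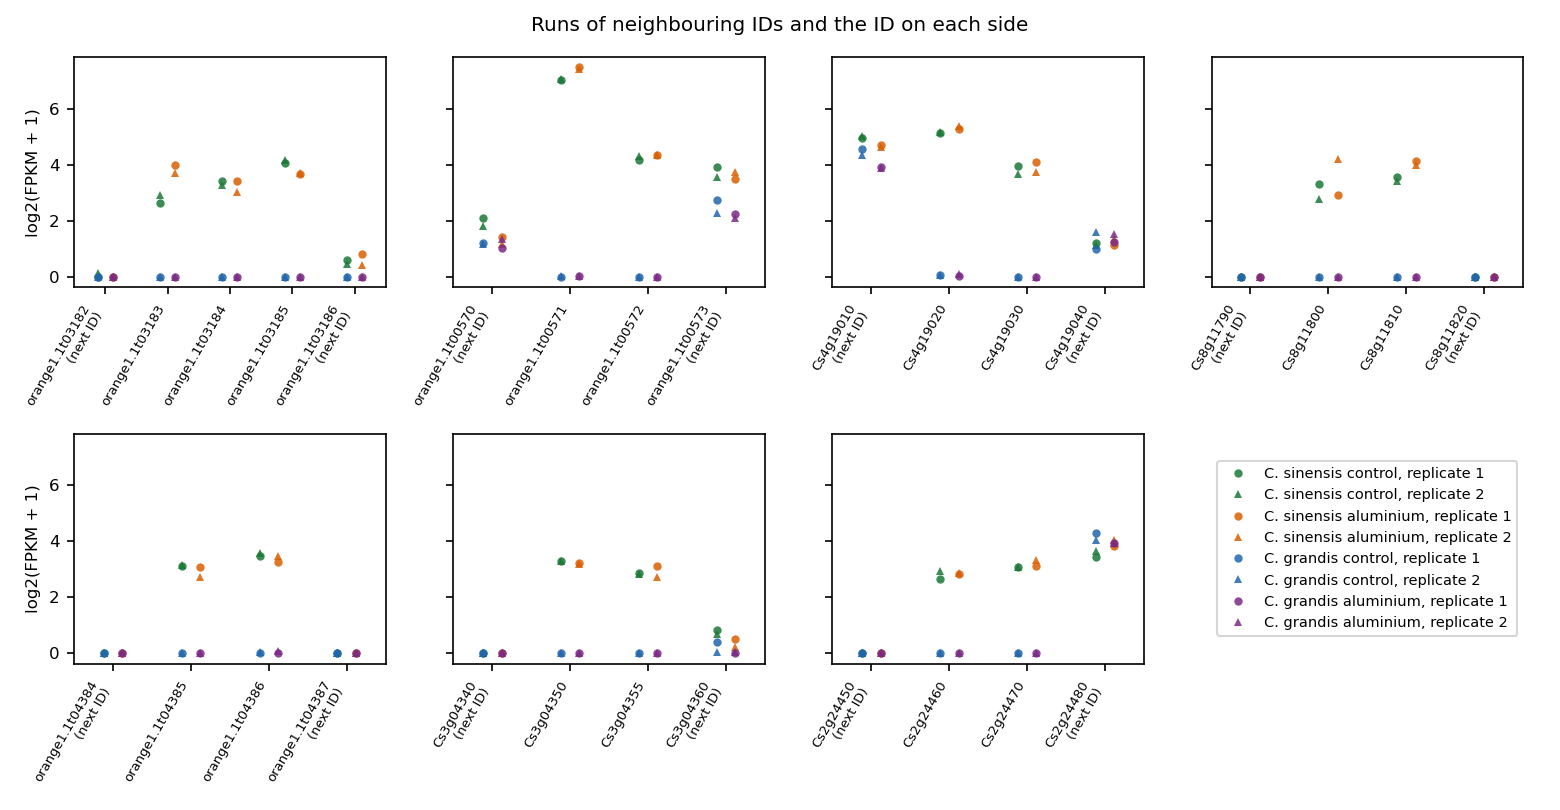
Level, as log2(FPKM + 1), of the members of the 7 runs and of the ID before and after each run, with 1 point per library (circles replicate 1, triangles replicate 2). Members sit at 0 or close to it in the 4 C. grandis libraries, while the IDs next to the runs of orange1.1t00571 and Cs4g19020 are expressed in both species.

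Around the 93 genes lay 84 stretches of consecutive IDs below 0.1 FPKM in every C. grandis library. They held 302 IDs, of which 136 (45%) were at 0 in all 8 libraries and 110 reached 1 FPKM in every C. sinensis library. IDs at 0 in all libraries join such stretches by construction, and 6927 of all 30297 listed IDs were of this kind. They filled 21.5% of the places next to one of the 93, against 13.1% of those next to any highly expressed C. sinensis gene. Of these stretches, 29 consisted of 1 ID, and the longest, orange1.1t04383 to orange1.1t04400, held 18 IDs, 14 of them at 0 in all 8 libraries. The stretch from Cs8g11700 to Cs8g11850 held 17 IDs, 13 at 0 in all libraries and 3 of the set: Cs8g11800, Cs8g11810 and Cs8g11845. Of 72 other IDs next to the 93 that reached 1 FPKM in every C. sinensis library, 49 (68.1%) also reached 1 FPKM in every C. grandis library and 12 (16.7%) were below 0.1 FPKM in all of them. For the IDs next to any highly expressed C. sinensis gene these shares were 93.2% and 1.41%. Of all places next to one of the 93, 29.6% held an ID at 1 FPKM or more in every C. grandis library. For any highly expressed C. sinensis gene this was 61.2%. Such an ID stood on each side of 9 of the 93 genes, a count with no like share taken over other genes.

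The aluminium response could be followed only in C. sinensis, and there it was small for most of the set, as for most genes tested. Neither direction held a called gene: with limma on log2(FPKM + 1) of the 4 C. sinensis libraries, 0 of the 93 genes and 0.0% of the 16064 genes tested had an adjusted p below 0.05 up or down. At an unadjusted p below 0.05 there were 19 of the 93 (20.4%), 16 higher with aluminium and 3 lower, where 25.3% of all genes tested passed, 14.5% higher and 10.8% lower. limma's voom on recovered reads likewise called 0 in each direction. It put 14 of the 93 and 4020 of the 16064 genes tested at an unadjusted p below 0.05. The 93 genes all entered the test through the rule itself. That rule also leaves out any gene under 5 FPKM in any C. sinensis library. A weakly expressed gene with a much lower level in aluminium leaves could therefore not appear. Neither could a gene that was higher with aluminium but under 5 FPKM in control leaves.

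Without a threshold on p, the set had a smaller share wholly lower with aluminium than all genes tested, and a similar share wholly higher. In 38 of the 93 genes both aluminium libraries lay above both control libraries, which held for 37.1% of all genes tested and is a similar share (40.9%). In 9 genes (9.68%) both lay below, against 24.1% of all genes tested and 27.1% of the 10521 IDs at 5 FPKM or more. In the other 46 genes (49.5%) the libraries overlapped, against 38.8% of all genes tested. The median log2 change of the 93 was 0.17, against 0.08 for all genes tested and 0.06 for the 10521. A log2 difference within 0.5 either way held for 81 of the 93 (87.1%), against 77.7% of all genes tested and 81.5% of the 10521. Centring each library on its median moved the median log2 change to 0.03 for the 93 and -0.06 for all genes tested, and then 24 genes (25.8%) lay wholly above control and 18 (19.4%) wholly below, against 23.0% and 36.4% of all genes tested.

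Summed over the set, the reads were close between replicates. The 93 genes held 1478 and 1472 RPM, or reads relative to the library total, in the control libraries and 1734 and 1730 RPM in the aluminium libraries. That is 1475 ± 4.33 against 1732 ± 2.42 RPM (SD, n = 2), a ratio of 1.17, and without orange1.1t00571 the ratio was 1.14. An exact two-sided permutation test of 2 against 2 libraries gave p = 0.333, the smallest it can give. An SD of 2 values is itself very uncertain. These sums are without median centring, which moved the median log2 change of the 93 from 0.17 to 0.03.

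**Figure D5:**
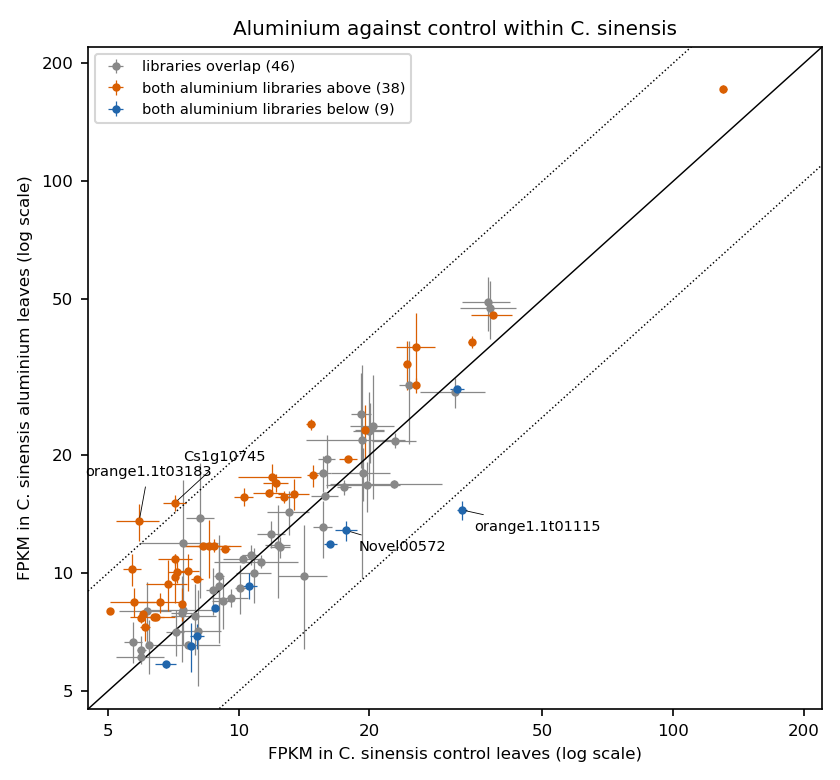
Mean FPKM of the 93 genes in C. sinensis aluminium leaves against control leaves (both axes log), with bars from the lower to the higher of the 2 libraries. The solid line marks equal FPKM and the dotted lines 2-fold differences in FPKM; 38 genes have both aluminium libraries above control (orange), 9 below (blue) and 46 overlap (grey).

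The widest separations were found in a handful of genes. The largest lower level with aluminium was that of orange1.1t01115, at 33.5 and 31.8 FPKM in control and 13.7 and 15.3 FPKM in aluminium leaves. Its means were 32.7 ± 1.18 and 14.5 ± 1.14 FPKM (SD, n = 2), or -1.12 ± 0.11 (SE) on the log2(FPKM + 1) scale, with a limma adjusted p of 0.0686 that missed the threshold. It had 3142 reads in C. sinensis and none in C. grandis, where a floor of 3 reads puts C. sinensis at least 958-fold higher. In the other direction orange1.1t03183, of the run of 3, stood at 5.9 ± 0.948 in control and 13.6 ± 2.01 FPKM (SD, n = 2), which is 1.08 ± 0.17 (SE) on that scale with a limma adjusted p of 0.0817. These were the only 2 of the 93 with a 2-fold difference on the log2(FPKM + 1) scale, 1 in each direction, or 1.08%. Of all genes tested, 4.43% were 2-fold higher and 1.25% 2-fold lower. Among all IDs at 5 FPKM or more in every C. sinensis library, these shares were 2.4% and 1.04%. In plain FPKM Cs1g10745 also passed 2-fold, with a ratio of means of 2.11.

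Cs1g10745, an in-between Cs gene, stood at 6.7 and 7.55 FPKM in control and 15.8 and 14.4 FPKM in aluminium leaves, higher by 0.98 ± 0.13 (SE) in log2 with a limma adjusted p of 0.0765. Novel00572 was second among the genes whose aluminium libraries lay wholly below control, at 16.7 and 18.7 against 13.6 and 12.1 FPKM, or -0.43 ± 0.13 (SE) in log2 with a limma adjusted p of 0.147. The groups did not overlap in either gene, yet neither passed. Another 2 genes, named after their values were seen, had a limma adjusted p below 0.1. They brought the genes of the set below that value to 5 (5.38%). This was a lower share than among all genes tested (6.67%) or among the highly expressed C. sinensis IDs (7.8%). Cs9g18260 stood at 14.3 and 15 FPKM in control and 23.2 and 24.8 FPKM in aluminium leaves (log2 difference 0.67, limma adjusted p = 0.0813). orange1.1t05985 stood at 5.41 and 5.97 FPKM in control and 11.2 and 9.25 FPKM in aluminium leaves (log2 difference 0.74, limma adjusted p = 0.0963).

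The calls turned on which libraries set the spread. A fit of all 8 libraries called 5 of the 93 genes: Cs1g10745, Cs9g18260, orange1.1t03183 and orange1.1t05985 higher with aluminium and orange1.1t01115 lower, with limma adjusted p from 0.0131 to 0.0427. Over all settings tried, the adjusted p of these 5 genes ranged from 0.00259 to 0.589. That fit called 3.74% of 16327 genes up and 2.6% down. In it the C. grandis libraries, which the rule holds near 0 for these genes, make up 2 of the 4 residual degrees of freedom, so its p-values are too small for this set. Without C. sinensis aluminium replicate 1 limma called 5 of the 93 genes up and 1 down, where 8.68% of all genes tested were called up and 6.37% down. Without replicate 2 of that group it called 11 up and 2 down, where 12.4% of all genes tested were called up and 8.88% down. In both fits the share called was lower among the 93, at 6.45% against 15.1% and 14% against 21.3%, and a lone aluminium library was assumed to vary like the controls. Without either control library it called 0 in each direction.

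The 2 aluminium pools of C. sinensis differed from each other more than the control pools did. In 15 of the 93 genes (16.1%) the aluminium libraries were 1.5-fold or more apart, and in 4 (4.3%) the control libraries were. Among the 10521 highly expressed IDs these shares were 11.1% and 1.27%. The aluminium libraries were 2-fold or more apart in 5 genes (5.38%, against 3.97% of the 10521), named after their values were seen. orange1.1t04627 stood at 9.74 and 34 FPKM in aluminium replicates 1 and 2 and at 24.2 and 14.3 FPKM in control leaves. Cs8g11800 stood at 6.56 and 17.3 FPKM in the aluminium replicates, and orange1.1t05867 at 6.41 and 13.3 FPKM. In these 3 genes replicate 2 was the higher one. Novel00797 stood at 19.1 and 8.62 FPKM and Cs4g11930 at 32 and 15.5 FPKM, with replicate 1 the higher. Over the whole set, replicate 1 lay above replicate 2 in 47 of the 93 genes (50.5%), against 44.7% of the 10521 IDs.

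The order of the treatments is given last by class of ID, beside the highly expressed C. sinensis IDs of the same class. Both aluminium libraries lay above control in 21 of the 38 Cs genes ending in 0 (55.3%, against 36.7% of their class) and below in 1 (2.63%, against 27%). The 38 had a median log2 difference of 0.23, against 0.06 for their class. Of the 15 in-between Cs genes, 6 lay above (40%, against 30.7%) and 1 below (6.67%, against 26%), with a median of 0.19, against 0.04. Of the 28 orange1.1t genes, 10 lay above (35.7%, against 36%) and 6 below (21.4%, against 28.3%), with a median of 0.17, against 0.03. Of the 12 Novel0 genes, 1 lay above (8.33%, against 30.7%) and 1 below (8.33%, against 19.3%), with a median of -0.03, against 0.05. These values are without median centring, each class holds few genes, and differences between classes were not tested.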

How the data were processed

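Per the file headers, the authors gave FPKM in 4 tables, each holding both libraries of a group. HTSeq, Bowtie, edgeR 1.18.0 and TopHat2 appear in the submitters' processing notes, with no roles. Neither the genome build nor the annotation is given in the sources used here. Members were IDs at 5 FPKM or more in each C. sinensis library and below 0.1 FPKM in each C. grandis library. Members and lists were chosen with earlier results of these data known.

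Reads, lengths and library totals were recovered as the smallest whole numbers that give the FPKM (tolerance 0.0001 reads) for all 22312 IDs above 0 in several libraries. Lengths are a part of the true one where all reads of a gene share a factor. The aluminium test was limma 3.58.1 (R 4.3.3) with a trend on log2(FPKM + 1), without further scaling, on the 4 C. sinensis libraries alone. It has 2 residual degrees of freedom. Genes with a mean of at least 1 FPKM there were tested, two-sided, with Benjamini-Hochberg adjustment over all of them and calls at an adjusted p below 0.05. The C. grandis libraries were left out of the main test because the rule holds them near 0. The recovery and the test were checked on simulated data. Fold changes on this log2 scale understate those of low genes.

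Named were the 10 highest members, the members of the 3 longest runs with the IDs next to them, the largest 2 differences each way among members whose treatments did not overlap, and the genes nearest each limit. Alternatives were other pseudocounts, filters, scalings, fits (including limma's voom on recovered reads, added after seeing the data), limits of the rule, definitions of a run and each library left out. Intervals are exact conditional 95% intervals of read ratios. Replicates are separate pools of seedlings, per the labels.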

Additional observations from a re-analysis of the deposited data

How the results depend on the processing

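The number of genes in the set followed its limits: 330 at 1 FPKM or more in C. sinensis, 39 at 10 or more, 143 with a C. grandis limit of 0.5 FPKM and 60 with no C. grandis read. With any single library dropped, the set held 95 to 104 genes. Genes in runs numbered 68 with the limit of 1 FPKM in C. sinensis and 9 among genes without a C. grandis read. Calls with aluminium were 0 up and 0 down under most settings. The exceptions were the fit of all 8 libraries, with 4 up and 1 down, and leaving out C. sinensis libraries, which ranged from 0 to 11 up and 0 to 2 down. Without aluminium replicate 1 or 2, 6.45% and 14% of the set were called, against 15.1% and 21.3% of all genes tested. The median log2 change of 0.17 became 0.03 after median centring and 0.05 after quantile normalization. It ranged from 0.15 to 0.2 with 1 library left out. Genes wholly above control numbered 24 after median centring (23% of all genes tested), and 46 to 53 with 1 library left out (44.7% to 53% of all). Genes wholly below numbered 18 after median centring (36.4% of all), 19 after quantile normalization (32.6% of all), and 17 to 23 with 1 library left out (30.1% to 38.3% of all), where fewer libraries make separation easier by construction. For other shifts the cause was not tested. The replicate block left the calls of the set at 0 up and 0 down. Replicate numbers did not pair the libraries by any label, and deviations of same-numbered C. sinensis libraries correlated with 0.05 across 16064 genes, which are not independent. At 3 reads, genes at 0 in C. grandis cannot be told from genes of very low level.
The planned voom fit with TMM scaling had also moved the median log2 change towards 0, and its values are left out, since its scaling tool is meant for deposited counts; voom with library totals was chosen after seeing the data.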

Other observations

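The rule with the species exchanged gave 16 IDs, of which 7 began with Novel0, 4 with orange1.1t and 5 with Cs. Their median length was 788 bp, close to the 762 bp of the 93 genes expressed in C. sinensis alone by the rule. The counts are too small to compare classes, and no test was made. Among the 93 genes, 50.5% had a recovered length that is a multiple of 3, against 38.9% of the 10521 IDs at 5 FPKM or more in every C. sinensis library.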
